A study of Homo sapiens with 6 samples.

Results

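The integrins, laminins, collagens and cadherins, the main receptors, matrix proteins and cell-to-cell adhesion molecules of animal tissues, were followed as probe sets on oligonucleotide arrays. Members were all probe sets whose single gene symbol in the platform annotation was that of an integrin with a numbered or V subunit, a laminin chain, a collagen chain or a numbered cadherin. This gave 252 of the 54675 probe sets, for 100 genes. The symbol pattern also took 10 probe sets of 7 genes that are not integrin subunits, among them ITGB3BP, a centromere protein, ITGB1BP1, which binds the tail of the beta 1 integrin, and antisense transcripts such as ITGB8-AS1. These are kept apart below as other integrin symbols.

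RNA from a human cell line of kidney origin was hybridised to 6 arrays of 1 colour, 2 for each of 3 groups. The groups were cells transfected with a construct labelled hIMP1 Dmut, cells transfected with a construct labelled hIMP1 wt, and mock cells transfected with the empty vector. IMP1, encoded by IGF2BP1, is an RNA-binding protein. The labels do not explain Dmut and do not name the cell line, the length of the treatment or the meaning of the replicate numbers 1 and 2 that the sample titles carry, and they do not say that replicates were separate cultures, so the p-values speak of how far these arrays scatter, a scatter that may be technical.

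Integrins are receptors of 1 alpha and 1 beta subunit that anchor cells to the matrix and pass signals both ways across the membrane. Laminins, trimers of an alpha, a beta and a gamma chain, and type IV collagen form the sheets of the basement membrane on which epithelial cells, including those of the kidney tubule, rest. Fibrillar collagens give connective tissue its strength, and cadherins join neighbouring cells through catenins and actin.

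The values as deposited were linear intensities, with array medians between 26.7 and 33.7 and a trimmed mean of 150.02 on each. Across the probe sets tested, arrays of the same number correlated at 0.97 to 0.98, and arrays of the same group at 0.963 to 0.964. With 6 arrays the precision of each value is limited. Intensities of different probe sets depend on their probe sequences and are not set against each other as amounts of RNA. In RNA of whole cultures, fewer cells of a kind and less RNA per cell cannot be told apart.

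A probe set was called expressed when its mean log2 intensity over the 6 arrays (with an offset of 9.0485 added before the log) reached 5.19, the median of all probe sets, and bright when it reached the 75th percentile, 7.24. Of the 252 member probe sets 87 were expressed (34.5%), against 56.2% of all probe sets with 1 symbol, and 23 were bright (9.13%, against 29.7%). At least 1 probe set was expressed for 55 of the 100 genes. By this measure the line expressed 9 of 13 integrin alpha genes, 4 of 7 integrin beta genes, 3 of 4 laminin alpha, 2 of 4 laminin beta and both laminin gamma genes. It expressed 7 of 8 basement membrane collagen genes (types IV, XV and XVIII), 6 of 10 fibrillar collagen genes, 12 of 24 other collagen genes, and 7 of 21 cadherin genes. Just inside the limit lay probe sets of CDH26 and COL4A3 with mean log2 values of 5.22 and 5.20, and just outside it probe sets of CDH11 and COL8A2, both at 5.17.

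**Figure D1:**
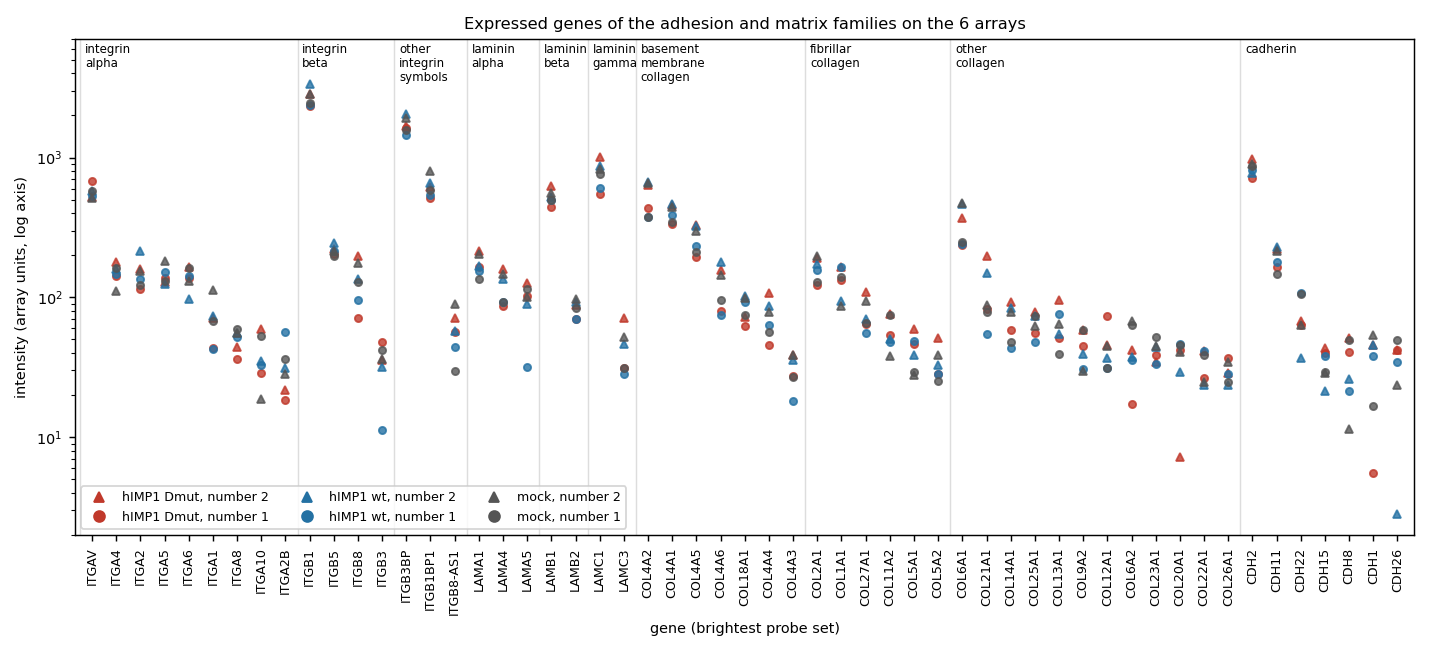
Intensity of the brightest probe set of each of the 55 expressed genes (log axis) on the 6 arrays, by family; colour gives the group and shape the replicate number, and each point is 1 array. For ITGB1 the 6 arrays lie between 2320 and 3340 and for CDH2 between 718 and 972, while CDH26 ranges from 2.84 to 49.9.

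Among the integrin beta subunits, ITGB1, the common partner of many alpha subunits, had intensities of 2320 and 2850 with hIMP1 Dmut, 2370 and 3340 with hIMP1 wt, and 2470 and 2870 in mock cells (replicates 1 and 2). The 3 groups overlapped. ITGB5, a partner of the alpha V subunit in vitronectin binding, lay between 198 and 243 on the 6 arrays. ITGB8, another alpha V partner, had 71.3 and 199 with hIMP1 Dmut, 95.3 and 136 with hIMP1 wt, and 129 and 177 in mock cells. In each group the array numbered 2 was the higher. ITGB3, also a partner of alpha V, was near the limit at 11.3 to 48.3. ITGB4, the hemidesmosome subunit (9.13 to 35.1), ITGB2 of white blood cells (1.36 to 21.7) and ITGB7 (1.38 to 4.62) were not called expressed.

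Among the alpha subunits ITGAV had 680 and 525 with hIMP1 Dmut, 535 and 580 with hIMP1 wt, and 579 and 513 in mock cells, so the groups overlapped. ITGA5, the fibronectin receptor subunit, lay between 125 and 182, and ITGA6, a laminin receptor subunit, between 97.5 and 164. ITGA4 (111 to 180), ITGA2 and ITGA1, which bind collagen (115 to 215 and 42.8 to 113), ITGA8, needed for kidney development (36.3 to 59.7), ITGA10 (18.8 to 59.1) and ITGA2B (18.4 to 56.4) were also called expressed. ITGA3, a laminin receptor subunit of epithelia, was not, at 3.32 to 37.3, and neither were ITGA7, ITGA9 and ITGA11.

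All 3 kinds of laminin chain were present. LAMC1, the gamma chain shared by most laminins, had 553 and 1010 with hIMP1 Dmut, 608 and 869 with hIMP1 wt, and 765 and 824 in mock cells. LAMB1, its usual partner, had 446 and 625, 496 and 519, and 499 and 557 in the same order of groups. Array 2 was above array 1 in each group for both genes. The alpha chains were LAMA1 (135 to 216), the chain of early embryonic and kidney epithelium, LAMA4 (87.1 to 160) and LAMA5 (31.9 to 126), while LAMA2, the muscle chain, was not called expressed (7.15 to 30.6). LAMB2 lay between 69.5 and 96.9 and LAMC3 between 28.1 and 71.7. LAMB3, a chain of the anchoring laminin of skin and other stratified epithelia, was not called expressed (2.68 to 18.5).

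All 6 type IV collagen genes had an expressed probe set, but only 9 of their 19 probe sets were called expressed. COL4A3 had 2 of 7, both near the limit (mean log2 5.29 and 5.20), COL4A4 and COL4A6 each 1 of 3, and COL4A5 1 of 2. COL4A1 and COL4A2, which build the most widespread type IV trimer, had 336 and 461 and then 435 and 635 with hIMP1 Dmut, 388 and 462 and then 377 and 668 with hIMP1 wt, and 344 and 443 and then 377 and 660 in mock cells. COL4A5, a chain of the mature glomerular basement membrane, had 193 and 329 with hIMP1 Dmut, 233 and 325 with hIMP1 wt, and 210 and 296 in mock cells. COL4A6, which is found with COL4A5 in other basement membranes, had 79.7 and 157, 74.9 and 178, and 96.5 and 144 in the same order. At the brightest probe set of each of these 4 genes all 3 arrays numbered 2 lay above all 3 arrays numbered 1, whereas the groups overlapped. At the dimmer expressed probe sets of COL4A1 and COL4A2 the arrays overlapped by number. COL4A4 (45.9 to 107) and COL4A3 (18.2 to 39), partners of COL4A5 in the glomerulus, showed the same split by number at their brightest probe sets. For COL4A3 the filter favoured that split, as its brightest probe set reached the limit by its number 2 arrays. The other expressed probe set of COL4A3 did not split by number. It had 17.2 and 34.8 with hIMP1 Dmut, 33 and 19.2 with hIMP1 wt, and 34.4 and 31.8 in mock cells. COL18A1, which carries heparan sulfate chains and yields endostatin, lay between 62.8 and 102, and COL15A1 was not called expressed (0.574 to 12.5).

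The 6 type IV genes lie in head-to-head pairs on opposite strands in RefSeq (GRCh38.p14), with start sites 127 bases apart for COL4A1 and COL4A2 on chromosome 13, 419 for COL4A3 and COL4A4 on chromosome 2, and 380 for COL4A5 and COL4A6 on chromosome X. A window from 250 bases before to 50 after the start is listed for 67 of the 100 genes. Where several start sites of a type IV gene were listed, the one nearest to its partner gene was taken. The distances above and the shared bases below depend on that choice. The windows of the 3 type IV genes that passed the test by replicate number below are shown, read 5′ to 3′ on the gene's own strand: COL4A2 at chr13:110307034-110307333 (plus strand), COL4A5 at chrX:108439588-108439887 (plus) and COL4A6 at chrX:108439409-108439708 (minus). Capitals mark the motif GGGCGG (or its complement CCGCCC), the motif CCAAT (or its complement ATTGG) and the motif TATAAA (or its complement TTTATA), searched on both strands, and no marked site overlapped another.
COL4A2: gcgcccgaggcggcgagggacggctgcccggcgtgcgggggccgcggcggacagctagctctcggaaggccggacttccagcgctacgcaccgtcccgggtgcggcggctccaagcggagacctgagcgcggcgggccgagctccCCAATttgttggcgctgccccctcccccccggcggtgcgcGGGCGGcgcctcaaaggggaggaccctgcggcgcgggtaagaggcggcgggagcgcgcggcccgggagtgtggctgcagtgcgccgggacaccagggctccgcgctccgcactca
COL4A5: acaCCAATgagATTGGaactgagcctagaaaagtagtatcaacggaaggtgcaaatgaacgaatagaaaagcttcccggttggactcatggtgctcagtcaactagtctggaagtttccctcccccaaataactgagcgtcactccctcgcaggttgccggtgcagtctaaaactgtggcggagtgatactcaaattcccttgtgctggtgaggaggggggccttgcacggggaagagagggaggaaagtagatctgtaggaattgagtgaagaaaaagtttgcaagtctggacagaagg
COL4A6: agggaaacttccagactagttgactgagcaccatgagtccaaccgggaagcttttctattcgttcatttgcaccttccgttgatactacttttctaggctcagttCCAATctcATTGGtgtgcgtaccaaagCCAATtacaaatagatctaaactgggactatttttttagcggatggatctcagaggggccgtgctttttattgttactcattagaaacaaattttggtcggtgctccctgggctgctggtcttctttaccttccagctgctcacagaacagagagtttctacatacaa
The COL4A2 window, which shares 226 bases with that of COL4A1, holds 1 GGGCGG and 1 CCAAT and is 77.7% G and C. The COL4A5 and COL4A6 windows share 121 bases, hold 2 and 3 CCAAT and no GGGCGG, and are 49.3% and 43.7% G and C. Both CCAAT sites of COL4A5 lie in the shared bases and are counted again, on the other strand, among those of COL4A6. TATAAA is in none of the 3 windows shown. Of 35116 promoter windows of the same length 45% hold GGGCGG, 34.6% CCAAT and 11.5% TATAAA, and their median G and C content is 58.7%. A match is a description of letters and no evidence of binding.

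Of the other collagens, COL6A1, a chain of the beaded filaments around cells, had 236 and 369 with hIMP1 Dmut, 242 and 467 with hIMP1 wt, and 248 and 472 in mock cells at its brightest probe set. The split again followed the number, with the lowest array numbered 2 above the highest numbered 1. COL21A1, a fibril-associated collagen, had 82.7 and 198 with hIMP1 Dmut, 54.4 and 149 with hIMP1 wt, and 78 and 88.2 in mock cells, where the arrays lay close. COL14A1, which decorates collagen fibrils, lay between 43.8 and 92.5, COL25A1 between 48 and 78.1, and COL13A1, a collagen that spans the membrane, between 39.3 and 95.2. Among the fibrillar chains COL2A1, the collagen of cartilage, had 122 and 190 with hIMP1 Dmut, 157 and 173 with hIMP1 wt, and 128 and 199 in mock cells. COL1A1, a chain of the main collagen of bone and skin, lay between 87.2 and 166, COL27A1 between 56 and 109, COL11A2 between 38.4 and 76, COL5A1 between 27.8 and 59.7, and COL5A2 between 25.1 and 51.3. COL3A1, the fibrillar collagen of vessels and soft organs, was not called expressed (2.83 to 50.6).

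Among the cadherins CDH2 (N-cadherin), typical of neural and mesenchymal cells, had 718 and 972 with hIMP1 Dmut, 809 and 776 with hIMP1 wt, and 871 and 906 in mock cells, with overlapping groups. CDH11, a cadherin of mesenchyme, had 165 and 222, 180 and 231, and 148 and 214 in the same order at its brightest probe set, again higher on array 2 in each group. The suffix _x_at of that probe set marks probes that can match other transcripts. Its 2 other expressed probe sets were not higher on array 2 in every group. They had 60.6 and 78.8, 88.3 and 72.6, and 47.9 and 64.7, and then 57.8 and 36.4, 34.2 and 51.7, and 48.7 and 43.5. CDH1 (E-cadherin), the main cadherin of epithelia, was just called expressed, with 5.56 and 46 with hIMP1 Dmut, 37.9 and 45.5 with hIMP1 wt, and 16.7 and 54 in mock cells. Its lowest array numbered 2 (45.5) lay above its highest numbered 1 (37.9). CDH22 (36.9 to 107), CDH15 of muscle (21.3 to 43.5), CDH8 (11.4 to 51.6) and CDH26 (2.84 to 49.9) were called expressed at low intensities. CDH3 (10.8 to 77.7), CDH6 of the developing kidney tubule (10.5 to 29.6), CDH5 of endothelium (0.551 to 5.2) and CDH16, the kidney-specific cadherin (1.54 to 8.02), were not.

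Cell type markers were read beside the members as a check of the labelled tissue. The lists are not separate from the members, as they include CDH1, CDH16, COL1A1, CDH5 and ITGB2. Of these, CDH1 and COL1A1 count among the expressed genes given next. The summed intensities of the lists by number, given below, include such members as well. The intermediate filament VIM of mesenchymal cells lay between 5280 and 6610, the epithelial keratin KRT18 between 1150 and 1360, EPCAM between 189 and 264, and the kidney transcription factors PAX8 and WT1 between 148 and 287 and between 142 and 235. Of the epithelial list 6 of 10 genes were expressed, of the mesenchymal list 4 of 10, of the embryonic kidney list 5 of 7 and of the neural list 4 of 6, with the neurofilament gene NEFL at 1080 to 1490. Of the endothelial list 1 of 7 was expressed, PECAM1 at 7.5 to 60.9, while VWF at 3.55 to 15.4 was not. Of the blood list 3 of 8 were expressed: HBB (34.9 to 86.9), CD3E (6.3 to 57.1) and ITGAM (16.9 to 53.5). The white blood cell marker PTPRC, at 0.654 to 17.7, was not. In the epithelial list KRT19 (1.08 to 10.5), CLDN3 (6.15 to 17.2) and CLDN4 (3.51 to 17) lay below the limit of expression. The kidney-specific CDH16, given above, lay below it as well. So did PDGFRA, PDGFRB, DCN, LUM, FAP and POSTN of the mesenchymal list, PAX2 and LHX1 of the embryonic kidney list, and NEFM and STMN2 of the neural list.

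The spread of each expressed probe set over the 6 arrays was split into parts for group (2 degrees of freedom), replicate number (1) and the rest (2). Over the 87 expressed member probe sets the median share was 24.1% for group, 29.6% for number and 27.2% for the rest, against 24.2%, 29.6% and 29.7% over all 27307 probe sets tested. Over the 23 bright members the medians were 12.8%, 64.9% and 9.64%, against 20.4%, 37.6% and 26.9% over the 13654 bright probe sets. At 1 probe set each, the number took 96.2% of the spread for COL4A2, 95.5% for LAMA4, 92.7% for COL6A1, 91.7% for COL4A6, 91% for COL4A5 and 85.3% for LAMB1. At the other expressed probe sets of these genes it took less, with 33.8% for COL4A2, 1.62% and 0.00768% for LAMA4, 19%, 10.4% and 6.03% for COL6A1, and 61.6% for LAMB1. It took over 50% in 34 of the 87 (39.1%) and in 32.2% of all probe sets tested.

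Replicate number was then tested within groups, which asks how the arrays numbered 2 differed from those numbered 1. The 5 members that passed were all collagens and were higher on number 2: COL6A1, COL4A2, COL4A6, COL4A5 and COL21A1, whose intensities are given above. That is 5 of 87 members higher and 0 lower, where 2.81% of all 27307 probe sets tested passed as higher, 2.9% as lower and 5.71% in either direction, so the share of members that passed in either direction was close to the background. COL6A1 was higher by 0.82 ± 0.13 on the log2 scale with the offset (SE; 1.76-fold; limma, adjusted p = 0.00797), with 0.63, 0.92 and 0.91 within hIMP1 Dmut, hIMP1 wt and mock. COL4A2 was higher by 0.71 ± 0.12 (1.64-fold; adjusted p = 0.01). COL4A6 was higher by 0.87 ± 0.19 (adjusted p = 0.0247) and COL4A5 by 0.56 ± 0.14 (adjusted p = 0.0367), both in all 3 groups. COL21A1 was higher by 0.88 ± 0.24 (adjusted p = 0.0487), but by 0.16 within mock, against 1.17 within hIMP1 Dmut and 1.31 within hIMP1 wt.

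**Figure D2:**
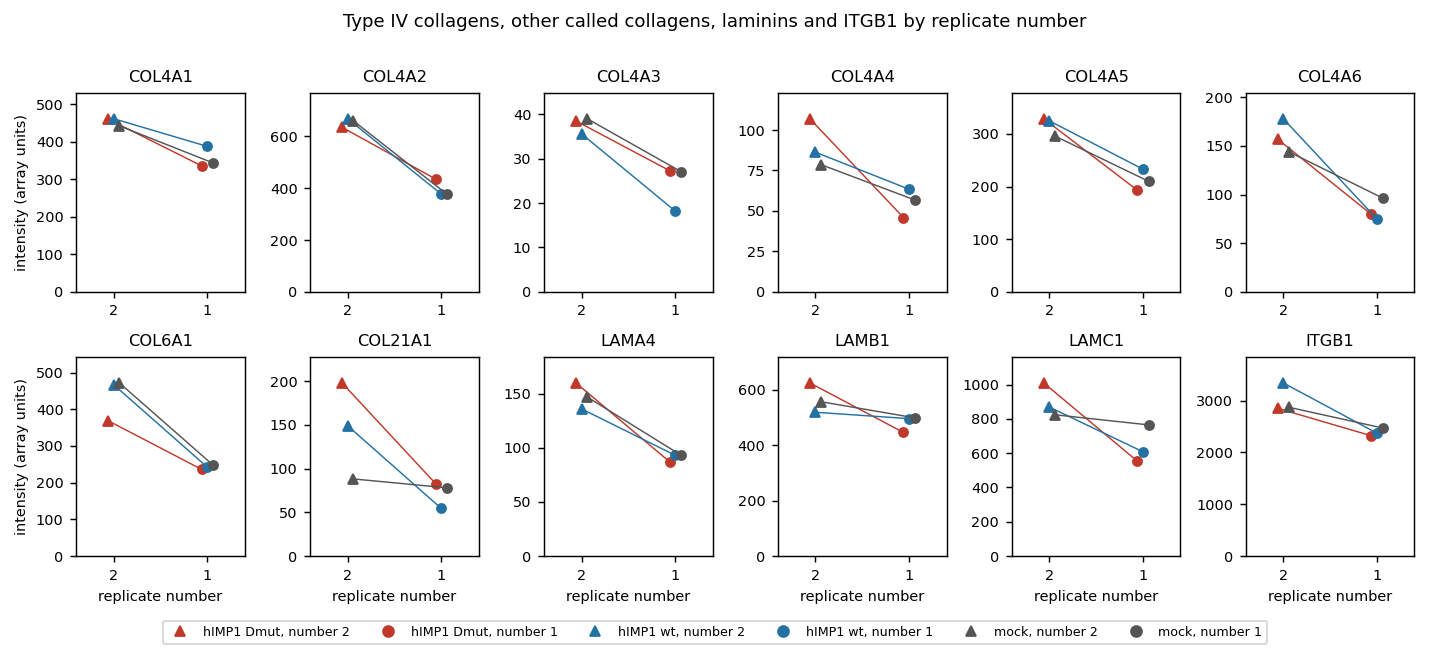
Intensity by replicate number (2 left, 1 right) for the type IV collagens, COL6A1, COL21A1, 3 laminin chains and ITGB1, brightest probe set of each; a line joins the 2 arrays of a group. The arrays numbered 2 are above those numbered 1 in all 3 groups in every panel, and in COL21A1 the mock arrays differ least, at 88.2 and 78.

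Among expressed members the direction was shared more widely than the calls. Of the 87 members 60 (69%) were higher on number 2, against 48.2% of all probe sets tested, and the median difference was 0.19, against -0.01. Without the filter on expression 127 of all 252 member probe sets were higher and the median was 0.00, against -0.04 over all 54613 probe sets. The arrays did not overlap for 31 members higher and 2 lower, and the same held for 14.5% and 14.8% of all probe sets tested. Of the 23 bright members 20 were higher, 15 of them without overlap, where 19.1% of the bright probe sets were higher without overlap, and 3 passed, where 4.56% did. Within hIMP1 Dmut, hIMP1 wt and mock the members' medians were 0.30, 0.17 and 0.20, against 0.03, -0.04 and -0.02 over all probe sets tested.

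The families differed in how many members were higher, as a description. All 11 laminin probe sets were higher on number 2 (median 0.35, lowest 0.006), as were 10 of 11 basement membrane collagen probe sets (median 0.35) and all 8 of integrin beta (median 0.17). These are not separate genes, as they come from 7 laminin, 7 basement membrane collagen and 4 integrin beta genes. Higher in every group were 7, 9 and 6 of these probe sets, where 5782 of all 27307 probe sets tested were. Integrin alpha had 9 of 15 higher (0.06), fibrillar collagens 5 of 10 (0.15), other collagens 9 of 18 (-0.00, and 0.06 with quantile scaling) and cadherins 4 of 10 (-0.10). For all 6 type IV genes the brightest probe set was higher in every group, but only 9 of their 19 probe sets were tested. That of COL4A3 reached the limit by its number 2 arrays (mean intensity 37.7, against 24.2 on number 1), so the filter favoured its difference. Those not tested went both ways: a probe set of COL4A6 had means of 28.3 on number 2 and 16.6 on number 1, and another had 15.2 and 21.1. Just short of the threshold were ITGB8 (0.76 ± 0.21, adjusted p = 0.0526), LAMA4 (0.65 ± 0.18, adjusted p = 0.0543) and LAMC1 (0.49 ± 0.14, adjusted p = 0.0622), all by limma. ITGB1 differed by 0.33 ± 0.11 (adjusted p = 0.105), and COL4A1 by 0.35 ± 0.12 (adjusted p = 0.117), each higher in all 3 groups. CDH1 differed by 1.14 ± 0.38 (adjusted p = 0.0997), with 0.22 within hIMP1 wt, against 1.91 within hIMP1 Dmut and 1.29 within mock.

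On the lower side no member passed. COL20A1 differed by -0.78 ± 0.36 and COL1A1, at a probe set of 2 expressed ones, by -0.32 ± 0.18, both lower in every group with no overlap of arrays. CDH26 (-0.91 ± 0.40) and CDH22 (-0.64 ± 0.27) did not differ the same way in every group. With 1 probe set a gene, the fit called 8 of 55 member genes, where 7.29% of 12269 genes passed: the 5 collagens above with ITGB8, LAMA4 and LAMC1.

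**Figure D3:**
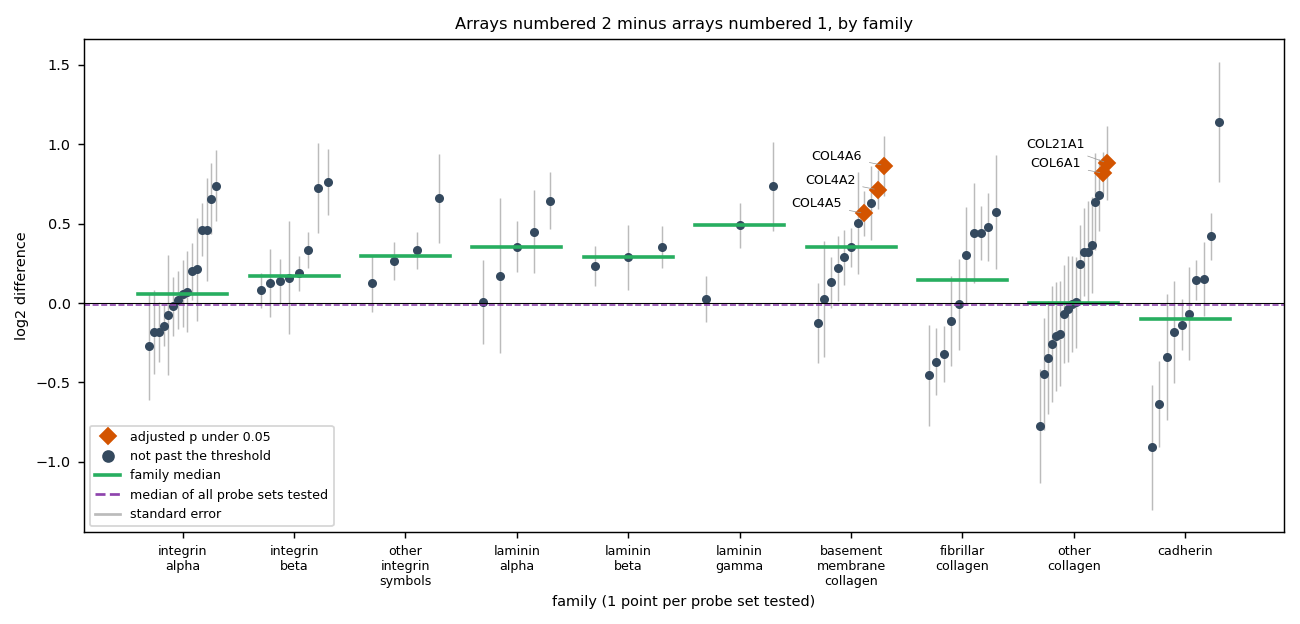
Difference of arrays numbered 2 minus arrays numbered 1 (log2, y axis) for the 87 expressed member probe sets by family; bars are standard errors of the limma fit, green lines family medians and the dashed line the median of all probe sets tested. All 11 laminin points lie above 0, and the 5 that passed are collagens.

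The calls depended on the model. With a variance prior that had no intensity trend, 0 of 27307 probe sets passed, while 12 members passed with median scaling and 2 with no filter. Leaving out either array of a group removes that group's difference: 1 and 0 members passed without hIMP1 wt replicate 1 and replicate 2, 17 and 14 without hIMP1 Dmut replicate 1 and replicate 2, and 6 and 5 without mock replicate 1 and replicate 2, while the median stayed between 0.15 and 0.24. The control probe sets at the 3' and 5' ends of ACTB had a ratio that moved with the number, at 1.57 to 1.67 on number 2 and 1.44 to 1.52 on number 1, and the ratio for GAPDH overlapped, at 1.13 to 1.17 and 1.03 to 1.16. Among the marker lists 1 gene passed, the smooth muscle actin ACTA2, with 0.52 ± 0.13 (limma, adjusted p = 0.0421). The summed intensity of the mesenchymal list was 5935 to 7189 on number 2 and 6173 to 6776 on number 1, that of the epithelial list 1860 to 2074 and 2030 to 2207, of the endothelial list 75.93 to 104.6 and 44.93 to 98.41, and of the blood list 121.2 to 236.2 and 177.6 to 188.7. That of the neural list was 3471 to 4209 on number 2 and 3477 to 3564 on number 1, and all 4 of its expressed genes were higher, NEFL without overlap (0.34 ± 0.11, adjusted p = 0.0952). That of the embryonic kidney list was 653.9 to 855.6 on number 2 and 674.4 to 753.7 on number 1, and 3 of its 5 expressed genes had an unadjusted p under 0.05 in the limma fit, with WT1 lower (-0.48 ± 0.16, adjusted p = 0.0947) and SALL1 higher (0.42 ± 0.16, adjusted p = 0.151), both without overlap. These sums rest largely on their brightest genes: VIM gave 5280 to 6610 of the mesenchymal sum, KRT18 1150 to 1360 of the epithelial and TUBB3 1780 to 2340 of the neural. No marker was at 0 on any array. The part of these ratios and markers in the difference by number was not tested.

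Genes that work with the members were followed in 5 lists, with 1 probe set a gene. Over the brightest probe sets of all 12269 genes tested, 52.2% were higher on number 2, 3.71% passed as higher, 2.49% passed as lower and 23.5% had an unadjusted p under 0.05 in the same limma fit, with a median of 0.02. Of the collagen modifying and processing enzymes 21 of 24 measured genes were higher on number 2, and 5 passed, all higher, with a median of 0.25. PLOD2, which hydroxylates collagen lysines, had 1110, 1090 and 1020 on number 2 with hIMP1 Dmut, hIMP1 wt and mock, and 852, 654 and 732 on number 1 (0.53 ± 0.12; limma, adjusted p = 0.0254). LOX, which crosslinks collagen, had 465, 372 and 445 on number 2 and 249, 300 and 291 on number 1 (0.59 ± 0.14, adjusted p = 0.0339). The 5 called enzymes were completed by ADAMTS3, a procollagen protease (0.90 ± 0.17), P4HA1, a prolyl 4-hydroxylase subunit (0.51 ± 0.13), and CRTAP, of the prolyl 3-hydroxylase complex (0.44 ± 0.12).

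Of the basement membrane and matrix glycoproteins 11 of 17 were higher, 5 passed, all higher, and the median was 0.30. FN1 (fibronectin), read at an _x_at probe set, had 523, 443 and 595 on number 2 in the same order of groups and 294, 265 and 273 on number 1 (0.88 ± 0.13; limma, adjusted p = 0.00518). FRAS1 (0.87 ± 0.14) and FREM2 (1.01 ± 0.20), which form a complex at embryonic basement membranes, FBN2, a fibrillin of elastic microfibrils (0.64 ± 0.11), and EFEMP1, a fibulin (0.76 ± 0.20), also passed.

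In the integrin adhesion complex list 16 of 24 genes were higher (median 0.10), and 1 passed, the tetraspanin CD9, with 605, 802 and 732 on number 2 and 429, 469 and 414 on number 1 (0.69 ± 0.12; limma, adjusted p = 0.0116). Of the catenins and junction partners 8 of 14 were higher (median 0.01). ARVCF, a catenin of the p120 family, was the 1 that passed, and it was lower, with 46.9, 26.3 and 15 on number 2 and 87, 90.4 and 132 on number 1 (-1.61 ± 0.32, adjusted p = 0.0169). ARVCF was read at an _x_at probe set. CTNNB1 (beta-catenin) differed by -0.02 ± 0.11. Of the matrix proteases and inhibitors 7 of 15 were higher (median -0.02) and none passed by limma, with 5 at an unadjusted p under 0.05, where 23.5% of all genes were that low. TIMP2, a protease inhibitor, was nearest, at 0.53 ± 0.16 (adjusted p = 0.0642).

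**Figure D4:**
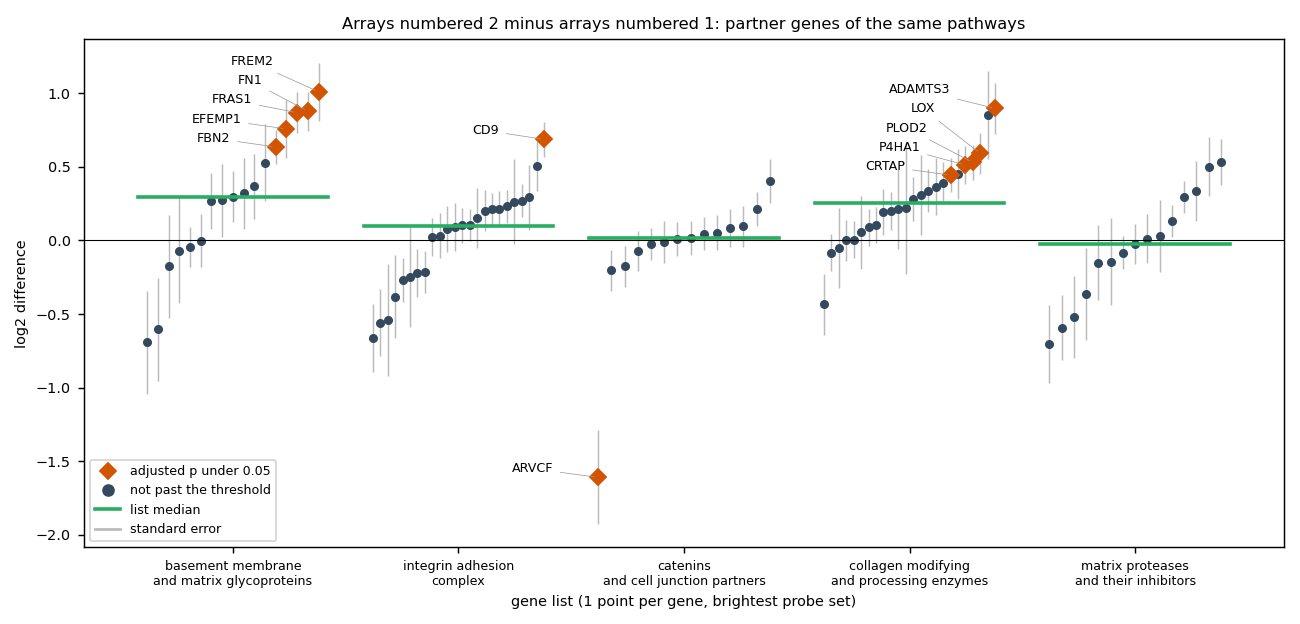
Difference of arrays numbered 2 minus arrays numbered 1 (log2, y axis) for the expressed genes of 5 partner lists, 1 point a gene; bars are standard errors of the limma fit and green lines list medians. The median is 0.30 for the matrix glycoproteins and 0.25 for the collagen enzymes, and ARVCF is the lowest point.

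The comparison of the constructs asks which members differ with hIMP1 Dmut or hIMP1 wt. No integrin, laminin, collagen or cadherin probe set passed in any of the 3 comparisons by limma. Over all 27307 probe sets 0.00732% passed for hIMP1 Dmut against mock, 0.00732% for hIMP1 wt against mock, and 0% for hIMP1 Dmut against hIMP1 wt. At an unadjusted p under 0.05 there were 4 members (1 higher, 3 lower), 1 member (lower) and 2 members (both higher), where 1.42%, 1.03% and 1.23% of all probe sets tested were that low. The median 95% interval of a member, not adjusted for the number of probe sets, reached 0.81 to either side of its difference, and 0.63 with the replicate number as a block, where again none passed. Larger differences, up to 1.18, also failed the adjusted test.

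With hIMP1 Dmut against mock 47 members were higher and 40 lower (54% higher, against 51.8% of all probe sets tested). Their median was 0.01, as over all probe sets tested (0.01). The arrays did not overlap for 6 higher and 11 lower, and the same held for 12.6% and 11% of all probe sets tested. ITGB5 at its _x_at probe set had 126 and 173 with hIMP1 Dmut, and 86.6 and 64.6 in mock cells, a difference of 0.90 ± 0.29 (limma, adjusted p = 1), with 0.50 within number 1 and 1.31 within number 2. The 2 other expressed probe sets of ITGB5 overlapped between these groups. COL27A1 at a dimmer probe set had 21.9 and 20.1 with hIMP1 Dmut, and 43.1 and 61.8 in mock cells (-1.02 ± 0.38; -0.75 and -1.28 within numbers 1 and 2), but its brightest probe set had 64.5 and 109 with hIMP1 Dmut, and 65.8 and 94.1 in mock cells. COL6A2, a partner chain of COL6A1, had 17.2 and 42 with hIMP1 Dmut, and 63.2 and 67.6 in mock cells (-1.02 ± 0.39; -1.46 and -0.59 within numbers 1 and 2), and the difference ran from -1.50 to -0.54 with single arrays left out. COL6A1 at a dimmer probe set had 21.9 and 75.4 with hIMP1 Dmut, and 110 and 104 in mock cells (-1.18 ± 0.44), with -1.91 and -0.46 as the extremes when single arrays were left out. COL5A1, which starts the assembly of collagen fibrils, had 46.7 and 59.7 with hIMP1 Dmut, and 29.2 and 27.8 in mock cells (0.72 ± 0.34; 0.54 and 0.90 within numbers 1 and 2). COL12A1 (0.52 ± 0.37), CDH8 (0.67 ± 0.50) and a dimmer probe set of LAMC1 (-0.41 ± 0.22) were next. With single arrays left out CDH8 changed direction (-0.09 to 1.43), COL12A1 ran from 0.22 to 0.82 and LAMC1 from -0.58 to -0.25. None of these passed, and adjusted p was 1 for each.

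With hIMP1 wt against mock 37 members were higher and 50 lower (42.5% higher, against 47.6% of all probe sets tested). Their median was -0.02, against -0.01 over all probe sets tested. The arrays did not overlap for 5 higher and 10 lower, and the same held for 9.72% and 11.6% of all probe sets tested. LAMA5, the alpha chain of the mature glomerular basement membrane, had 31.9 and 89.1 with hIMP1 wt, and 115 and 100 in mock cells (-0.88 ± 0.39; limma, adjusted p = 1). That difference rested on 1 array: it was -0.25 without hIMP1 wt replicate 1 and -1.51 without replicate 2. COL6A2 had 35.4 and 37.2 with hIMP1 wt (-0.71 ± 0.39), and COL5A1 48.7 and 38.8 (0.49 ± 0.34), so these probe sets lay on the same side of the mock arrays with either construct. The other expressed probe set of COL6A2 overlapped with mock for either construct, with differences of 0.30 ± 0.44 for hIMP1 wt against mock and -0.12 ± 0.44 for hIMP1 Dmut against mock. These 2 comparisons share the mock arrays. ITGB3 differed by -0.74 ± 0.43 and COL13A1 at its _x_at probe set by -0.89 ± 0.45, and with single arrays left out these ran from -1.24 to -0.23 and from -1.46 to -0.31. On the higher side ITGA2 (0.53 ± 0.46), COL6A1 (0.52 ± 0.44) and CDH11 (0.46 ± 0.31) followed, each at a dimmer probe set. With single arrays left out ITGA2 ran from 0.01 to 1.05 and CDH11 from 0.27 to 0.65.

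With hIMP1 Dmut against hIMP1 wt 45 members were higher and 42 lower (51.7% higher, against 54.1% of all probe sets tested). Their median was 0.01, against 0.02. The arrays did not overlap for 12 higher and 8 lower, and the same held for 13.1% and 8.89% of all probe sets tested. ITGB5 at its _x_at probe set had 126 and 173 with hIMP1 Dmut, and 65.2 and 84.2 with hIMP1 wt (0.92 ± 0.29; limma, adjusted p = 1), with 0.87 within number 1 and 0.97 within number 2. These arrays of hIMP1 Dmut also entered the comparison with mock. The brightest probe set of ITGB5 went the other way, with 203 and 222 with hIMP1 Dmut, and 214 and 243 with hIMP1 wt. LAMA5 had 103 and 126 with hIMP1 Dmut, and 31.9 and 89.1 with hIMP1 wt (0.95 ± 0.39), or 0.32 without hIMP1 wt replicate 1 and 1.58 without replicate 2. ITGA2B, the platelet fibrinogen receptor subunit, differed by -0.82 ± 0.40, COL27A1 at a dimmer probe set by -0.82 ± 0.38, COL18A1 by -0.48 ± 0.28 and ITGB1BP1 at its _x_at probe set by -0.41 ± 0.25. ITGB3 differed by 0.81 ± 0.43. With single arrays left out ITGB3 ran from 0.31 to 1.32, ITGA2B from -1.17 to -0.46 and COL27A1 from -1.09 to -0.54. The brightest probe set of COL27A1 was instead higher with hIMP1 Dmut, at 64.5 and 109, than with hIMP1 wt, at 56 and 70.2. CDH26 differed by 1.17 ± 0.59, with 0.23 within number 1 and 2.11 within number 2.

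**Figure D5:**
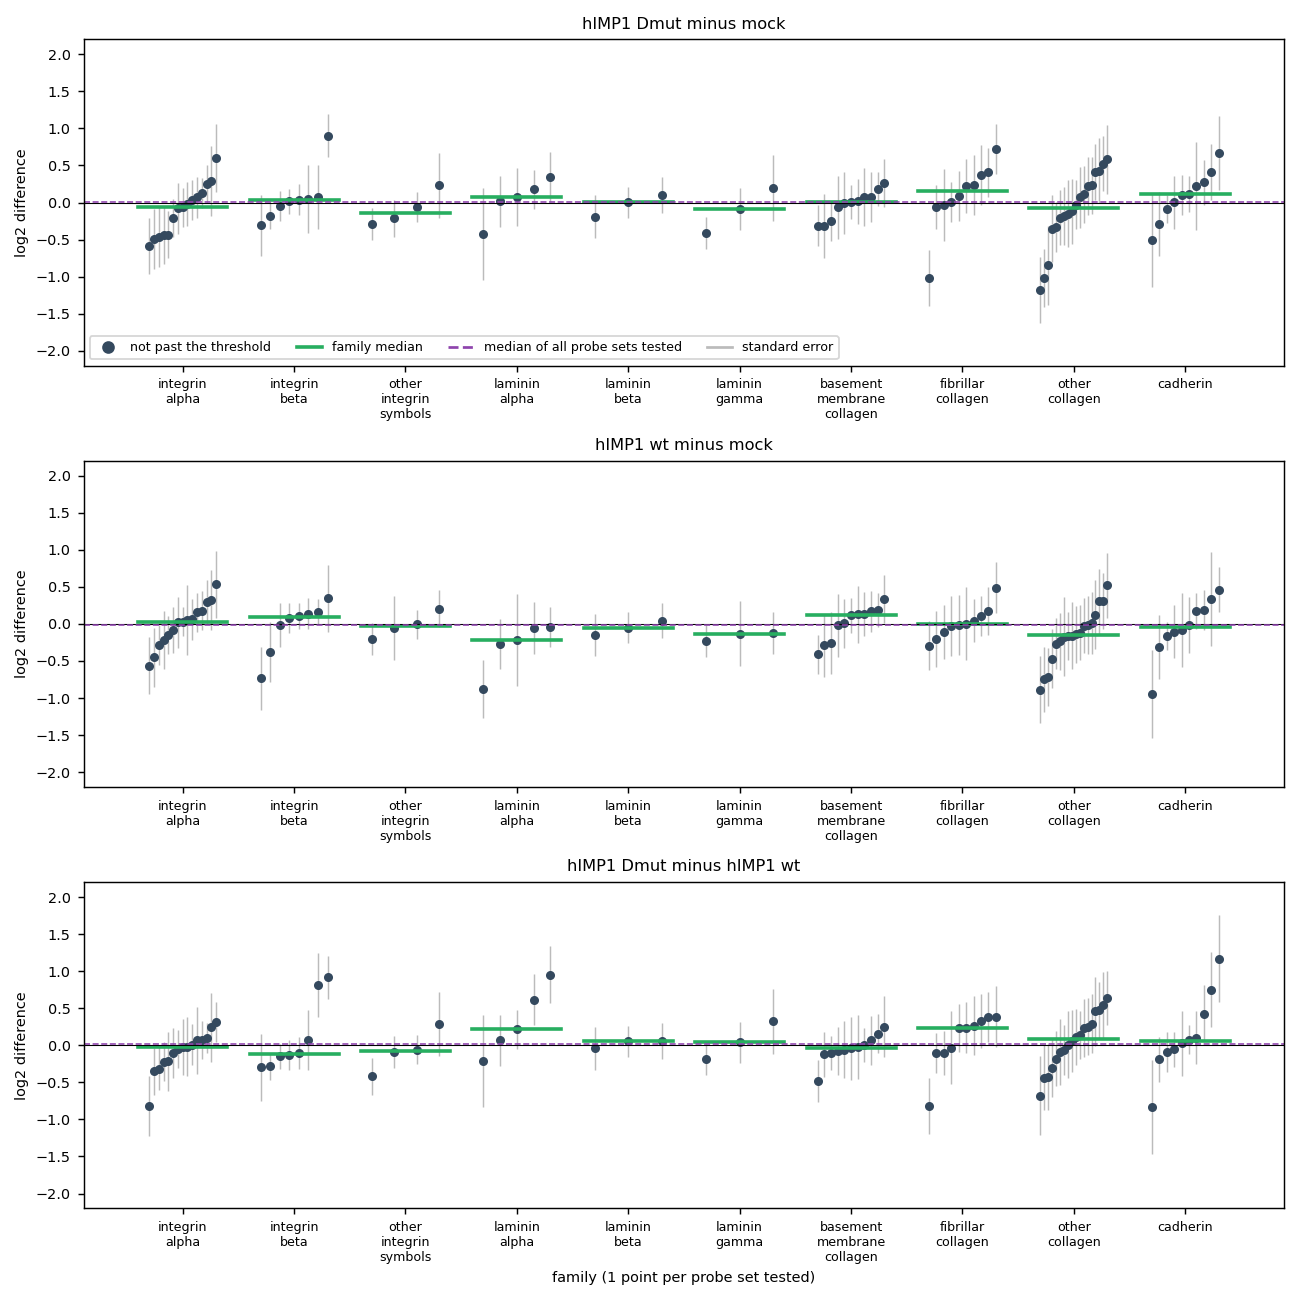
Difference between groups (log2, y axis) for the 87 expressed member probe sets by family: hIMP1 Dmut minus mock, hIMP1 wt minus mock, and hIMP1 Dmut minus hIMP1 wt; bars are standard errors of the limma fit, green lines family medians and the dashed line the median of all probe sets tested. No point passed the threshold, and points lie on both sides of 0 in every family except laminin alpha and laminin gamma with hIMP1 wt against mock, which lie below it.

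By family the medians of these comparisons lay between -0.22 (laminin alpha, hIMP1 wt against mock) and 0.235 (fibrillar collagens, hIMP1 Dmut against hIMP1 wt). Of the 11 laminin probe sets 10 were lower with hIMP1 wt than in mock cells (median -0.13), and 4 were lower with hIMP1 Dmut than in mock cells (median 0.01). In the 5 partner lists no gene passed in any of the 3 comparisons by limma. At an unadjusted p under 0.05 was 1 gene, PARVB, for hIMP1 Dmut against mock. For hIMP1 Dmut against hIMP1 wt there were 2 genes, BCAR1 and TLN2. Of all probe sets tested 1.42% and 1.23% were that low in these comparisons. All 3 genes are of the integrin adhesion complex list, with 24 genes measured. The other lists had 17, 14, 24 and 15 measured.

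Probe sets of the same gene often disagreed. Of the 23 genes with at least 2 expressed probe sets, these differed in sign for 12 with hIMP1 Dmut against mock, for 11 with hIMP1 wt against mock and for 13 with hIMP1 Dmut against hIMP1 wt, and for 9 by replicate number. COL6A1 was among the genes of mixed sign in all 4 comparisons, so its call by number holds for the probe set named. The 2 expressed probe sets of COL4A2 were both higher on number 2 (0.71 and 0.13), as were those of COL4A1 (0.35 and 0.29), while LAMC1 had 0.49 and 0.03. Of the 252 member probe sets 16 carry the suffix _x_at and 80 _s_at, which mark probes that can match other transcripts, and 5 and 36 of these were expressed.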

How the data were processed

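Total RNA of 6 transfected samples was read on 1-colour Affymetrix arrays, with groups from the labels' descriptions and replicate numbers from the titles. The deposited values are intensities, 1 per probe set, on a linear scale, and the software that made them is not given in the sources used here. The trimmed mean (2% off each end) was 150.02 on every array. Values were used without further scaling as log2 of the deposited intensity plus 9.0485, the pooled lower quartile. The 62 control probe sets were left out, and the 27307 of 54613 with a mean log2 at or above the median were tested. Gene symbols came from the platform annotation (41091 probe sets with 1 symbol, 1801 with several, 11721 with none), and all 100 member genes matched the RefSeq table of GRCh38.p14 by gene identifier.

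Fits used limma 3.58.1 in R 4.3.3 (lmFit, eBayes with an intensity trend), two-sided, with Benjamini-Hochberg adjustment over all probe sets tested and a threshold of 0.05. The group fit had 3 residual and 7.03 prior degrees of freedom, and the fit of number within group 2 and 10.5. The scripts were tested on simulated data. Promoter windows are RefSeq's.

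Members and gene lists were chosen with earlier results of these data known. Named were, per comparison and direction, up to 8 called members or those of smallest p up to 4, the 5 genes of highest level per family, a fixed set of cadherin, integrin, laminin and collagen genes, up to 3 genes per list, and genes with probe sets of mixed sign. Other scalings, offsets, filters and priors, the replicate number as a block and each array left out were tried. 1 collagen gene is not reported here.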

Additional observations from a re-analysis of the deposited data

Results flagged for a closer look

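In 3 cadherin probe sets the difference varied between the pairs of arrays compared, each pair being 1 array a side, and the difference between the pairs was not tested. CDH8 was higher with hIMP1 Dmut than in mock cells by 1.57 on the log2 scale within the arrays numbered 2 and differed by -0.228 within those numbered 1; mock replicate 2 was at 11.4, against 49.4 for mock replicate 1. CDH22 differed between number 2 and number 1 by -1.34 within hIMP1 wt and by 0.0849 within hIMP1 Dmut. CDH26 differed by -1.88 within hIMP1 wt, where replicate 2 was at 2.84, and by 0.000764 within hIMP1 Dmut, where the arrays were level.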

How the results depend on the processing

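No member passed in the 3 construct comparisons under any alternative run, including the replicate number as a block (0 in each, with 2, 2 and 0 of 27307 probe sets passing for hIMP1 Dmut against mock, hIMP1 wt against mock and hIMP1 Dmut against hIMP1 wt). The labels do not say that the numbers pair the samples, and with 2 numbers the check cannot decide it: differences by number correlated across probe sets at 0.464 between hIMP1 wt and mock, 0.2 between hIMP1 Dmut and mock, and 0.217 between hIMP1 Dmut and hIMP1 wt. The members' median difference was near 0 and changed with the setting. For hIMP1 wt against mock it was 0.0209 with median scaling, -0.0525 with no filter, 0.0444 with a filter at the 75th percentile and -0.0517 with the brightest probe set of each gene, and -0.0998 to 0.0764 with single arrays left out. For hIMP1 Dmut against mock it was -0.137 to 0.159 with single arrays left out. For hIMP1 Dmut against hIMP1 wt it was -0.111 with median scaling, which moved the median of all probe sets to -0.102, and -0.129 to 0.196 with single arrays left out. CDH8 turned round for hIMP1 Dmut against mock with single arrays left out (-0.0874 without mock replicate 2, up to 1.43 without mock replicate 1).

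By replicate number the members called were 5 as reported, 12 with median scaling (which moved the median of all probe sets to 0.0866), 2 with no filter, 0 with no intensity trend, 8 with the brightest probe set of each gene and 0 to 17 with single arrays left out. The median was 0.296 with median scaling, 0.00415 with no filter, 0.331 with a filter at the 75th percentile and 0.287 with the brightest probe set of each gene. The directions by family were kept under quantile, median and cyclic loess scaling, with cadherins at -0.06, -0.00 and -0.06, except that other collagens, at -0.00 as reported, were at 0.06, 0.09 and 0.06. Raising the filter to the 75th percentile left 23 expressed probe sets and a median share of 64.9% for number; these 2 were alternatives chosen after seeing the data. COL6A1 passed in 15 of 17 alternatives, COL4A2 in 14 of 17, COL4A6 in 12 of 16, COL4A5 in 11 of 17 and COL21A1 in 9 of 16, all with the difference above 0. What caused these changes was not tested.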

Other observations

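Of the 7 genes that share only the start of an integrin symbol, 3 were called expressed. ITGB3BP had 1640 and 1680 with hIMP1 Dmut, 1460 and 2040 with hIMP1 wt, and 1570 and 1910 in mock cells. ITGB1BP1 lay between 510 and 796, and the antisense transcript ITGB8-AS1 between 29.7 and 89.9. All 4 of their expressed probe sets were higher on number 2 than on number 1 (median 0.30), where 48.2% of all probe sets tested were higher. None was past the threshold in the limma fit, and 3 had an unadjusted p under 0.05. Of all 27307 probe sets tested, 2951 were that low on the higher side and 3131 on the lower side.

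The values are limited by 2 arrays a group, by labels that do not say what the replicate number stands for, and by probe sets whose signal can include other transcripts. Intensity says nothing of protein or of chains assembled into matrix.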
